A study of Mus musculus with 6 samples.

Results

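The genes described here are 10 transcripts of connective tissue cells other than the collagens, namely Postn, Sparc, Dcn, Lum, Fbn1, Pdgfra, Acta2, Islr, Nid1 and Mest. They were taken by gene name from a table of 31617 genes, and each name matched 1 row. The rule uses names alone, but the names were chosen with earlier results of these data known. Their levels were followed in macrophages taken by flow sorting from pancreas tissue of wild-type Balb/c animals. All mice were fasted overnight and given 10 hourly intraperitoneal injections, of caerulein for the injured groups and of saline for mock, which is called day 0 (its sample label lists no treatment). Caerulein is a cholecystokinin analogue that overstimulates acinar cells and causes acute pancreatitis. Leukocytes were enriched with magnetic beads against CD45.2 and sorted as CD45+CD11b+F4/80+ cells. There was 1 library for mock and 1 each for days 1, 3, 4, 5 and 7 after the first injection, each from a pool of more than 3 mice. Day 4 comes from its sample's labels, and the study's design text names the other days alone. No value has a replicate, so differences between days are given with counting intervals and without a test. The comparisons address how the transcripts of sorted pancreatic macrophages changed through injury and recovery.

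Fibroblasts and pancreatic stellate cells make the extracellular matrix of the pancreas. After injury, stellate cells become activated, take on smooth muscle alpha-actin and secrete collagens together with proteins that bind, space and organise the collagen fibres. These cells do not carry the leukocyte protein CD45, so the sort selects against them. Several of the genes are also made by endothelial, smooth muscle and other stromal cells.

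The libraries held between 14853084 and 25726455 reads over genes. Each deposited value is a gene's read count over a scaling factor of its library, called normalised reads here. These values are not corrected for gene length, so levels are compared between libraries and not between genes. The genes of the sort were abundant in every library: Ptprc, which encodes CD45, lay between 7282 and 12626 normalised reads, Adgre1, which encodes F4/80, between 9671 and 23702, and Itgam, which encodes CD11b, between 678 and 2627. None of 10 macrophage genes was at 0 reads in any library. Their summed level, mostly of the lysozyme gene Lyz2, was 770010 in mock, 510246 at day 1 and 850407 at day 3. It was 1379080 at day 4, 902598 at day 5 and 416594 at day 7. Stromal transcripts were scarce in comparison. A library value of 1 of the 10 stromal genes rested on between 7 reads (Mest on day 1 and Acta2 on day 5) and 9269 reads (Sparc on day 3), and 13 of the 60 values rested on fewer than 30 reads.

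Stromal transcripts were highest in the libraries of days 3 and 7 and lowest in those of days 1 and 4. Together the 10 genes took 186 of every 1000000 gene reads in mock (95% Clopper-Pearson interval 179 to 192). They took 32.0 (29.3 to 34.9) on day 1 and 584 (574 to 593) on day 3. On day 4 the share was 57.6 (53.8 to 61.6), on day 5 it was 100.2 (95.7 to 105.0) and on day 7 it was 451 (441 to 462). These and all other intervals cover counting error alone, and reads without molecular identifiers may be copies of 1 molecule. Sparc alone supplied 61.7% of these reads on day 3 and 27.1% on day 7. Without Sparc the order of those 2 libraries turned, with 224 per 1000000 at day 3 and 329 at day 7. In a bulk library, fewer cells of a type and less RNA per cell cannot be told apart.

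**Figure D1:**
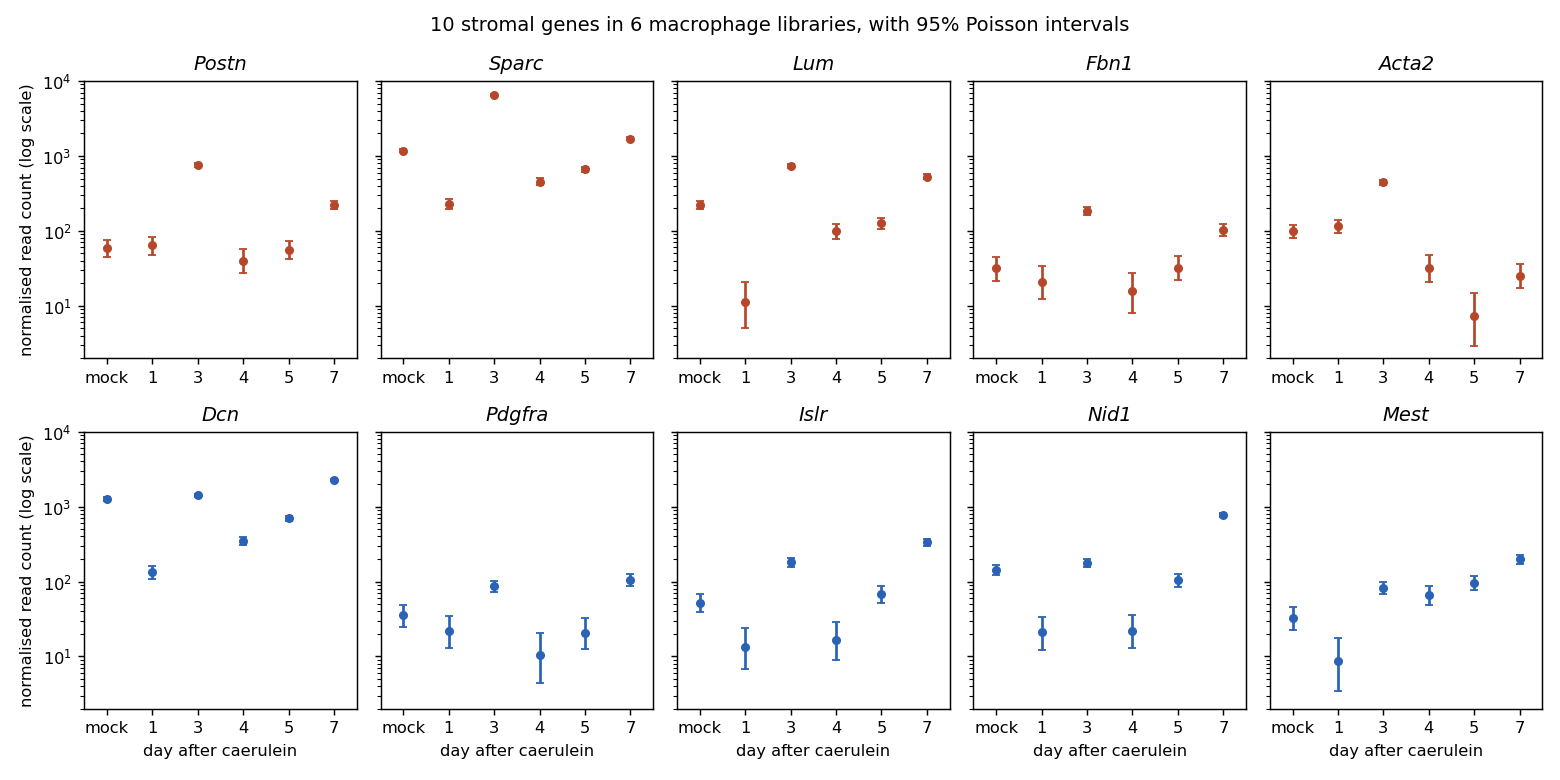
Normalised reads (log scale, not corrected for gene length) of each of the 10 genes in the mock library and on days 1, 3, 4, 5 and 7, with 95% Poisson intervals of the reads. Red genes in the top row had their highest value on day 3 and blue genes in the bottom row on day 7, and Acta2 alone had no second maximum above mock on day 7.

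Of the 10 genes, 5 had their highest value on day 3 (Postn, Sparc, Lum, Fbn1 and Acta2) and 5 on day 7 (Dcn, Pdgfra, Islr, Nid1 and Mest). Among the 10000 genes of highest mean, called expressed genes here, 19.4% were highest on day 3 and 15.1% on day 7. For 8 of the 10 genes, days 3 and 7 held both highest values, which was the case for 2.53% of expressed genes. The exceptions were Acta2, whose second highest value was on day 1, and Mest, whose second highest was on day 5. The lowest value was on day 1 for 6 genes, on day 4 for 3 and on day 5 for Acta2, against 19.4%, 19% and 4.37% of expressed genes. All 10 spanned at least 4-fold over the 6 libraries with the pseudocount described below, as did 14.7% of expressed genes. Only 8 of the 10 belong to the expressed genes, since Fbn1 (mean 64.5 normalised reads) and Pdgfra (mean 46.5) were under the lowest mean among them, 74.1.

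Among the genes that led on day 3, 2 encode matricellular proteins, which are secreted into the matrix and regulate how cells meet it. Postn (ENSMUSG00000027750) encodes periostin, a binding partner of collagen and integrins that is made by activated fibroblasts. It had 59.2 normalised reads in mock, 64.0 at day 1, 765 at day 3, 40.1 at day 4, 56.2 at day 5 and 222 at day 7. The day 3 value stood far above the rest, and mock and days 1, 4 and 5 lay close together. Postn was 12.9-fold higher on day 3 than in mock (95% counting interval 10.0 to 17.0) and 3.75-fold higher on day 7 (2.84 to 5.03).

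Sparc (ENSMUSG00000018593) encodes osteonectin, a collagen-binding glycoprotein that takes part in the assembly of collagen fibres. Its normalised reads were 1178 in mock, 230 at day 1, 6528 at day 3, 452 at day 4, 661 at day 5 and 1688 at day 7. Day 3 was again highest by a wide margin, but unlike Postn the value of day 1 was well below mock. Sparc was 5.54-fold higher on day 3 than in mock (5.22 to 5.88), 5.12-fold lower on day 1 (4.39 to 6.0) and 1.43-fold higher on day 7 (1.33 to 1.54).

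Acta2 (ENSMUSG00000035783) encodes smooth muscle alpha-actin, the contractile protein by which activated stellate cells and myofibroblasts are commonly identified, and which smooth muscle cells and pericytes also make. It had 98.4 normalised reads in mock, 114 at day 1, 443 at day 3, 32.3 at day 4, 7.28 at day 5 and 25.3 at day 7. The gene was near its mock level on day 1, when most of the others were low, and it was low on day 7, when the others were high. It was 4.50-fold higher on day 3 than in mock (3.65 to 5.6), whereas it was 13.5-fold lower on day 5 (6.33 to 34.4, on 7 reads) and lower on day 7 as well, at 0.258 of the mock level (0.166 to 0.390). No other of the 10 genes was below mock on day 7.

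Because these 3 genes were high together in the day 3 library, their promoters are shown, from RefSeq for GRCm38.p6. The window runs from 250 bases before to 50 after the listed start site, 5′ to 3′ on the gene's strand. Capitals mark matches on either strand to any of 5 motifs. The first is the CArG box, allowing at most 1 letter other than adenine and thymine among its 6 inner letters. The core of the TATA box, where transcription of many genes is set to begin, was searched as TATANA. A short element that Smad proteins bind downstream of TGF-beta receptors was searched as CAGACA. The element of the TEAD factors, which act with the coactivators Yap and Taz, was searched as GGAATG. The GC box of the general activator Sp1 was searched as GGGCGG. The Acta2 window is at chr19:34255324-34255623 (minus strand), Postn at chr3:54360857-54361156 (plus strand, the downstream of 2 listed starts) and Sparc at chr11:55420031-55420330 (minus strand).
Acta2: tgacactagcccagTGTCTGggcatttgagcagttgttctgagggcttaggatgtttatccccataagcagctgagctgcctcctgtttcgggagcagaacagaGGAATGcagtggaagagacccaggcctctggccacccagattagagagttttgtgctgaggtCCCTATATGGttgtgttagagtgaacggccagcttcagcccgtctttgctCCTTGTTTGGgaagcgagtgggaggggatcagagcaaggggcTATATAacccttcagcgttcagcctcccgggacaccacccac
Postn: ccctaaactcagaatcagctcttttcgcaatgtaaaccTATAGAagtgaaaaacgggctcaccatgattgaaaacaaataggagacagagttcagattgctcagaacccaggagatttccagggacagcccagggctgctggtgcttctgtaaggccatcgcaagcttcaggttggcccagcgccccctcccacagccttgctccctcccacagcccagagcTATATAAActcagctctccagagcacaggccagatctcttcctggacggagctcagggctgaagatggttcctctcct
Sparc: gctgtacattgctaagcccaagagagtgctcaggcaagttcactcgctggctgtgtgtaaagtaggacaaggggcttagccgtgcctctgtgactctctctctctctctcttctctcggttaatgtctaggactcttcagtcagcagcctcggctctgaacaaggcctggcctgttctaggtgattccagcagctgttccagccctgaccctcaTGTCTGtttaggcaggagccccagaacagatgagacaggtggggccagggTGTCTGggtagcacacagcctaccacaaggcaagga
The Acta2 window held 2 CArG matches, beginning 84 and 34 bases before the start site, a motif bound by serum response factor in smooth muscle genes. At least 1 such match was present in 9.98% of 32851 RefSeq promoter windows of 300 bases. Acta2 also held 1 match each to the TEAD and Smad motifs before the start site and 1 to the TATA motif after it, beginning at base 9 with the start site as base 1. Postn held 3 TATA matches, of which the 2 nearest the start overlap, beginning 28 and 26 bases before it, and Sparc held 2 Smad matches. The TATA motif was present in 24.7% of all windows, the Smad motif in 21.0%, the TEAD motif in 14.7% and the GC box in 35.7%. Only matches of letters are described, and no binding was measured. The promoter table held 8 of the 10 genes, and Dcn and Lum were not matched.

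The other 2 genes that led on day 3 encode structural proteins of the matrix. Fbn1 (ENSMUSG00000027204) encodes fibrillin-1, the backbone of microfibrils, which scaffold elastic fibres and hold latent TGF-beta. Its normalised reads were 31.5 in mock, 20.9 at day 1, 183 at day 3, 15.5 at day 4, 32.2 at day 5 and 104 at day 7. Days 3 and 7 stood above the other 4 libraries, whose counting intervals of level overlapped. The ratio intervals still set day 4 below mock, at 0.493 of its level (0.232 to 0.979). Day 5 was 2.08-fold higher than day 4 (1.04 to 4.44). Fbn1 was 5.81-fold higher than mock on day 3 (4.04 to 8.62) and 3.30-fold on day 7 (2.23 to 5.0).

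Lum (ENSMUSG00000036446) encodes lumican, a small leucine-rich proteoglycan that spaces collagen fibrils. It had 221 normalised reads in mock, 11.1 at day 1, 727 at day 3, 99.6 at day 4, 126 at day 5 and 529 at day 7. The day 3 value was highest and that of day 1 by far the lowest, 65.6-fold apart without a pseudocount (34.4 to 144), on 9 reads for day 1. Lum was 3.29-fold higher than mock on day 3 (2.85 to 3.82) and 2.40-fold on day 7 (2.06 to 2.80).

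The genes that led on day 7 began with a proteoglycan of the same family. Dcn (ENSMUSG00000019929) encodes decorin, which binds collagen fibrils and TGF-beta and is abundant in quiescent as well as active fibroblasts. Its normalised reads were 1268 in mock, 133 at day 1, 1408 at day 3, 352 at day 4, 695 at day 5 and 2268 at day 7. Day 3 was hardly above mock, 1.11-fold (1.04 to 1.19), although Lum was 3.29-fold higher in the same library. Dcn was 9.54-fold lower than mock on day 1 (7.84 to 11.7) and 1.79-fold higher on day 7 (1.67 to 1.91).

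Nid1 (ENSMUSG00000005397) encodes nidogen-1, a basement membrane glycoprotein that links laminin to type IV collagen and is made by many mesenchymal cells and by endothelium. It had 142 normalised reads in mock, 20.9 at day 1, 177 at day 3, 22.0 at day 4, 104 at day 5 and 764 at day 7. The day 7 value was far above all others, and day 3 was close to mock, 1.24-fold (1.01 to 1.53). On day 7 Nid1 was 5.37-fold higher than in mock (4.51 to 6.43). Its promoter is shown to set the gene with the strongest lead on day 7 beside those of day 3, and lies at chr13:13437352-13437651 (plus strand), marked as above.
Nid1: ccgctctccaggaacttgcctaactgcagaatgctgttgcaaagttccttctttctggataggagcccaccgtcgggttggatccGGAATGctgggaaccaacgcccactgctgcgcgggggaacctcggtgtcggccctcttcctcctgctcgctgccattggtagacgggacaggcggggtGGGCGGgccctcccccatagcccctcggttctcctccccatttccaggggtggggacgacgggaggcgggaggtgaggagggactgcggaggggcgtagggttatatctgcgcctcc
This window held 1 GC box and 1 TEAD match and no match to the CArG, TATA or Smad motifs. Of its bases 64.7% were G or C, against 54.7% for Acta2, 53.0% for Postn and 55.3% for Sparc. It held 20 CG pairs, and the other 3 held between 4 and 6. In windows not shown, the motifs did not divide by the day of the highest value. Fbn1, highest on day 3, held a GC box and no match to the other motifs. Islr, highest on day 7, held a Smad match. Mest, also highest on day 7, held GC box and TATA matches.

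Islr (ENSMUSG00000037206) encodes a secreted protein with leucine-rich repeats and an immunoglobulin domain, also called meflin, a marker of mesenchymal stromal cells. Its normalised reads were 51.6 in mock, 13.5 at day 1, 180 at day 3, 16.8 at day 4, 67.6 at day 5 and 333 at day 7. Both days 3 and 7 stood clear of the other libraries, at 3.48-fold (2.59 to 4.76) and 6.45-fold (4.85 to 8.74) the mock level. Islr had the largest ratio to mock on day 7 of the 10 genes.

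Pdgfra (ENSMUSG00000029231) encodes the alpha receptor for platelet-derived growth factor, a surface marker of fibroblasts. It had 35.3 normalised reads in mock, 22.2 at day 1, 85.9 at day 3, 10.4 at day 4, 20.8 at day 5 and 105 at day 7. Days 3 and 7 were high and did not differ beyond counting error, with a ratio of 1.22 (0.942 to 1.58). Pdgfra was 2.43-fold higher than mock on day 3 (1.67 to 3.61) and 2.96-fold on day 7 (2.04 to 4.4).

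Mest (ENSMUSG00000051855) encodes a hydrolase-like protein, expressed from the paternal allele, that is widespread in embryonic mesenchyme. Its normalised reads were 32.5 in mock, 8.61 at day 1, 81.7 at day 3, 66.0 at day 4, 96.7 at day 5 and 198 at day 7. Mest was the 1 gene whose interval between days 3 and 4 included no difference, with a ratio of 0.808 (0.569 to 1.13). Its values of days 3, 4 and 5 had overlapping counting intervals of level, although day 5 was 1.47-fold higher than day 4 (1.03 to 2.10). These values lay above mock, 2.98-fold on day 5 (1.99 to 4.55), and day 7 was at 6.11-fold (4.25 to 9.04).

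**Figure D2:**
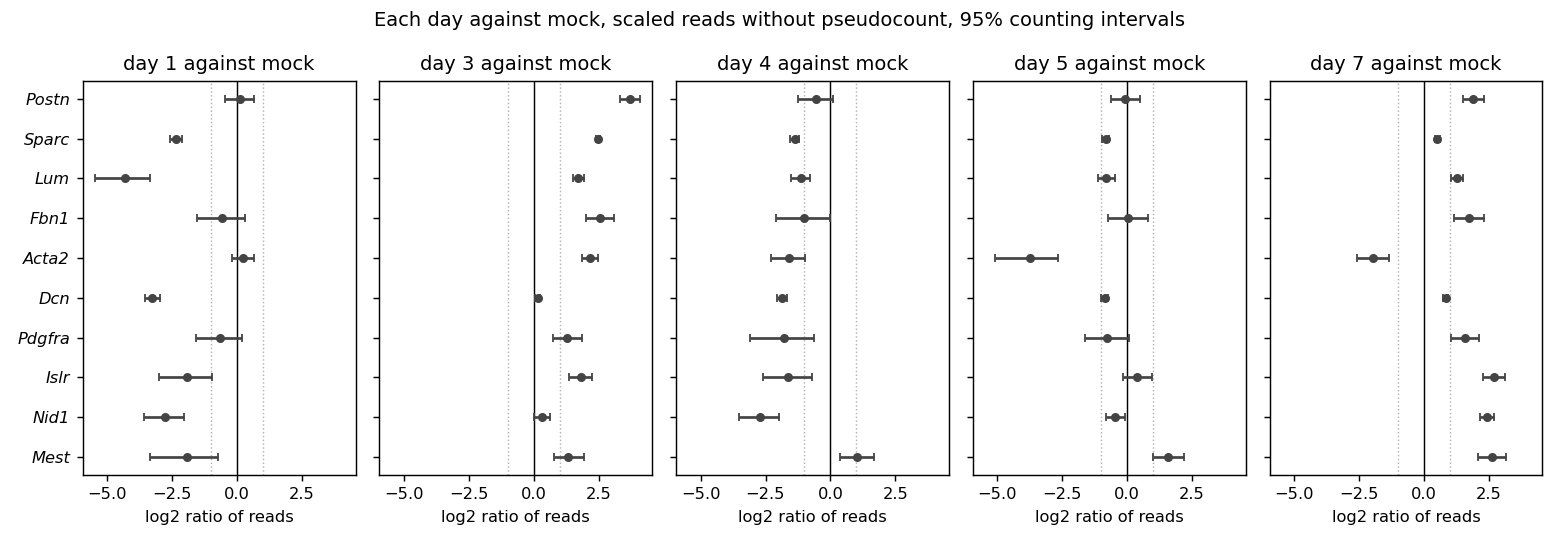
Log2 ratio of scaled reads (without pseudocount) of each day against mock for the 10 genes, with 95% counting intervals; dotted lines mark 2-fold. On day 3 all 10 intervals lie above 0, on day 7 those of 9 genes with Acta2 below, and on day 4 Mest alone lies wholly above 0.

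To count genes past 2-fold, log2 ratios were taken after adding a pseudocount of 17.8 normalised reads, which understates the ratios of low genes. On day 1, 0 of the 10 genes passed 2-fold above mock and 5 passed 2-fold below it (Sparc, Dcn, Lum, Islr and Nid1), while 6.68% and 9.58% of expressed genes were higher and lower. The median log2 ratio of the 10 was -1.04, and that of expressed genes 0.15. With quantile normalisation the median of the 10 was -0.010 and 4 were lower (Sparc, Dcn, Lum and Nid1), so the other low values on day 1 depended on the scaling. Counting intervals of Postn, Fbn1, Pdgfra and Acta2 on day 1 included the mock level.

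On day 3, 6 of 10 exceeded mock at least 2-fold (Postn, Sparc, Lum, Fbn1, Acta2 and Islr) and 0 were as much lower, against 3.73% and 5.71% of expressed genes. Pdgfra and Mest lay just under 2-fold with the pseudocount, at log2 ratios of 0.97 and 0.99. The median of the 10 was 1.58 and that of expressed genes 0.08. All 10 genes had counting intervals above the mock level.

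On day 4, 0 of 10 were at least 2-fold higher and 6 lower (Sparc, Dcn, Lum, Acta2, Islr and Nid1), against 3.31% and 8.11% of expressed genes. The median was -1.01, beside -0.01 over expressed genes. Lum and Islr were barely past 2-fold, and with quantile normalisation 3 were lower and 1 was higher. On day 5 Mest was the 1 gene at least 2-fold higher than mock and Acta2 the 1 gene lower, against 3.68% and 6.4% of expressed genes, and the median of the 10 was -0.43, or 0.04 with quantile normalisation.

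On day 7, 7 of 10 were at least 2-fold higher than mock (Postn, Lum, Fbn1, Pdgfra, Islr, Nid1 and Mest) and 1 was lower, Acta2, whereas 1.96% and 6.57% of expressed genes were. The median of the 10 was 1.26 and that of expressed genes -0.11. With quantile normalisation the median of the 10 was 1.80.

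Successive libraries were compared in the same way. From day 1 to day 3 all 10 were at least 2-fold higher, against 9.72% of expressed genes (8.21% were lower), with a median log2 ratio of 2.52 beside -0.08 over expressed genes. The largest log2 ratios with the pseudocount were those of Sparc (4.72) and Lum (4.69). With quantile normalisation 9 were. From day 3 to day 4, 9 of 10 were at least 2-fold lower, against 5.89% of expressed genes (3.23% were higher), with a median of -2.55 beside -0.08. Without the pseudocount Postn was 19.1-fold lower (13.4 to 28.2), Sparc 14.5-fold (13.0 to 16.1) and Acta2 13.7-fold (9.19 to 21.3), with overlapping intervals. Dcn was 4.0-fold lower (3.52 to 4.56).

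From day 4 to day 5, 2 genes were at least 2-fold higher (Islr and Nid1), against 5.4% of expressed genes, and Acta2 was lower, against 3.11%, and the median of the 10 was 0.49 beside 0.12. From day 5 to day 7, 8 of 10 were at least 2-fold higher, against 5.07% of expressed genes (4.68% were lower), with a median of 1.67 beside -0.25 over expressed genes. The other 2, Acta2 and Mest, were 3.48-fold (1.5 to 9.39) and 2.05-fold (1.61 to 2.64) higher without the pseudocount. These comparisons share libraries with each other and with those against mock, so they are not independent of one another.

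The libraries of days 3 and 7, both rich in stromal transcripts, differed in which of the genes were abundant. This comparison was chosen after the values were seen. Relative to day 3, Acta2 was 17.5-fold lower on day 7 (12.1 to 26.1), Sparc 3.87-fold (3.69 to 4.06) and Postn 3.44-fold (3.01 to 3.95). Lum and Fbn1 were lower by less, with ratios of 0.727 (0.658 to 0.804) and 0.567 (0.454 to 0.706). Nid1 was 4.32-fold higher on day 7 (3.76 to 4.99), Mest 2.43-fold (1.94 to 3.06), Islr 1.85-fold (1.58 to 2.18) and Dcn 1.61-fold (1.52 to 1.71). At 2-fold with the pseudocount 2 were higher and 3 lower, against 8.15% and 18% of expressed genes. The median of the 10 was -0.10 and that of expressed genes -0.15, close to each other although single genes of the 10 lay far apart.

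**Figure D3:**
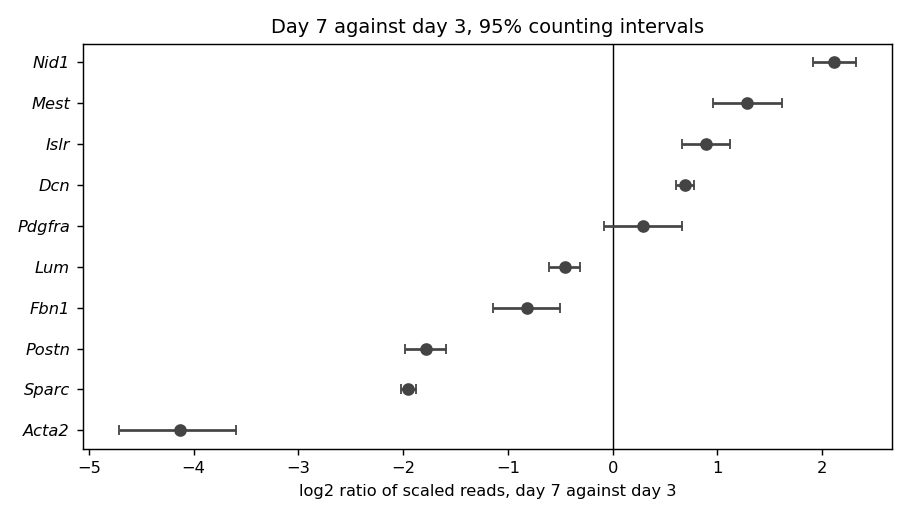
Log2 ratio of scaled reads on day 7 against day 3 for the 10 genes, in order, with 95% counting intervals. Acta2, Sparc and Postn lie lowest and Nid1 highest, and the interval of Pdgfra includes 0.

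Most other matrix genes were highest on day 3 or 7 as well. Of 17 collagen genes, 10 were highest on day 3 and 7 on day 7, and their summed level was 2540 in mock, 555 at day 1, 15951 at day 3, 827 at day 4, 2020 at day 5 and 8672 at day 7. Col1a1, a chain of type I collagen, had 183 normalised reads in mock, 2512 at day 3, 36.2 at day 4 and 721 at day 7. Of 29 further matrix genes, 14 exceeded mock at least 2-fold on day 3 and 1 was lower, with a median log2 ratio of 0.78, and on day 7 the counts were again 14 and 1 with a median of 0.85. From day 3 to day 4, 22 of the 29 were at least 2-fold lower and 0 higher. Smoc2, a matricellular relative of Sparc, was highest on day 7 (747 normalised reads, against 179 in mock and 154 on day 3). The 1 lower gene on day 7 was the proteoglycan gene Vcan, with 305 normalised reads in mock, 1888 at day 1 and 58.3 at day 7, a course unlike that of the others.

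Enzymes and chaperones of collagen maturation divided by gene. Of 15, 9 were at least 2-fold higher than mock on day 3 and 0 lower (median 1.16), and 6 on day 7 (median 0.64). The collagen chaperone gene Serpinh1 had 123 normalised reads in mock, 961 at day 3, 27.2 at day 4 and 302 at day 7. Lox, the cross-linking lysyl oxidase, had 27.7 in mock and 322 on day 3. In contrast Plod1, a lysyl hydroxylase, and P4ha1, a prolyl hydroxylase, were abundant in every library, between 2440 and 4485 and between 907 and 1927 normalised reads, and neither was 2-fold from mock on any day.

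Surface and lineage genes of fibroblasts were low throughout. Of 21, 4 belonged to the expressed genes, and their summed level was 845 in mock, 273 at day 1, 1018 at day 3, 358 at day 4, 409 at day 5 and 1669 at day 7. Of these 21, 12 were highest on day 7 and 5 on day 3. Dpep1, a membrane dipeptidase, had 85.0 normalised reads in mock, 23.2 at day 3 and 377 at day 7. The beta receptor gene Pdgfrb had 52.5 in mock, 93.0 at day 3, 12.9 at day 4 and 121 at day 7, with the same 3 highest libraries as Pdgfra.

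Markers held to define stellate cells gave little signal. Gfap and Ngfr were at 0 reads in at least 1 library and under 4 normalised reads in every library. Lrat, the enzyme that stores retinol as ester, had at most 3.69 normalised reads. The more abundant genes of that list are not particular to stellate cells. Hgf, which encodes hepatocyte growth factor, had 120.3 normalised reads in mock, 285 at day 3 and 187 at day 7, and Angptl2, which encodes a secreted angiopoietin-like protein, had 106 in mock, 201 at day 3 and 324 at day 7.

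Smooth muscle and pericyte genes summed to 262 normalised reads in mock, 83.7 at day 1, 644 at day 3, 136 at day 4, 134 at day 5 and 269 at day 7 over 14 genes, of which 0 belonged to the expressed genes. Of them 9 were highest on day 3 and 2 on day 7. Tpm2, a muscle tropomyosin, had 36.3 normalised reads in mock, 258 at day 3 and 22.8 at day 7, and the actin-binding protein gene Tagln had 24.8, 91.6 and 18.6. Of the 14 genes, 3 exceeded mock at least 2-fold on day 3 and 1 was lower, and on day 7 there were 0 in either direction, unlike Acta2. The defining smooth muscle genes Cnn1, Actg2 and Lmod1 were at 0 reads in at least 1 library, and Myh11 lay between 6.15 and 9.86 normalised reads in all 6.

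Transcripts of other pancreatic cells also differed between the libraries. The summed level of 10 duct cell genes was 856 in mock, 1199 at day 1, 3912 at day 3, 657 at day 4, 245 at day 5 and 1607 at day 7, with Cldn4 at 0 reads on day 5. Of these, 5 exceeded mock at least 2-fold on day 3, and Krt19, which mesothelial cells make as well, had 31.5 normalised reads in mock and 521 on day 3. Mesothelial genes, 8 with Krt19, summed to 97.4 in mock, 654 at day 3 and 104 at day 7. On day 3 that sum was mostly Krt19, the 1 gene of the 8 at least 2-fold above mock (median log2 ratio 0.37). Msln had 12.4, 40.8 and 1.69 in the same 3 libraries, while Upk1b, Wt1, Lrrn4 and Nkain4 were at 0 reads in at least 1 library. The 16 acinar genes summed to 804834 in mock, 75220 at day 1, 164002 at day 3, 52704 at day 4, 39801 at day 5 and 930095 at day 7. Their sum on day 3 was thus below mock and day 7 but above days 1, 4 and 5. From day 3 to day 4, 14 of the 16 were at least 2-fold lower and 0 higher. Endothelial genes, 12 in all, summed to 1232 in mock, 1622 at day 1, 1006 at day 3, 331 at day 4, 471 at day 5 and 891 at day 7. On day 1 that sum was mostly Kdr, with 1320 normalised reads against 91.7 in mock, and Cldn5 and Robo4 were at 0 reads on days 1 and 4. The part that any of these cells had in the levels of the 10 genes was not tested.

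**Figure D4:**
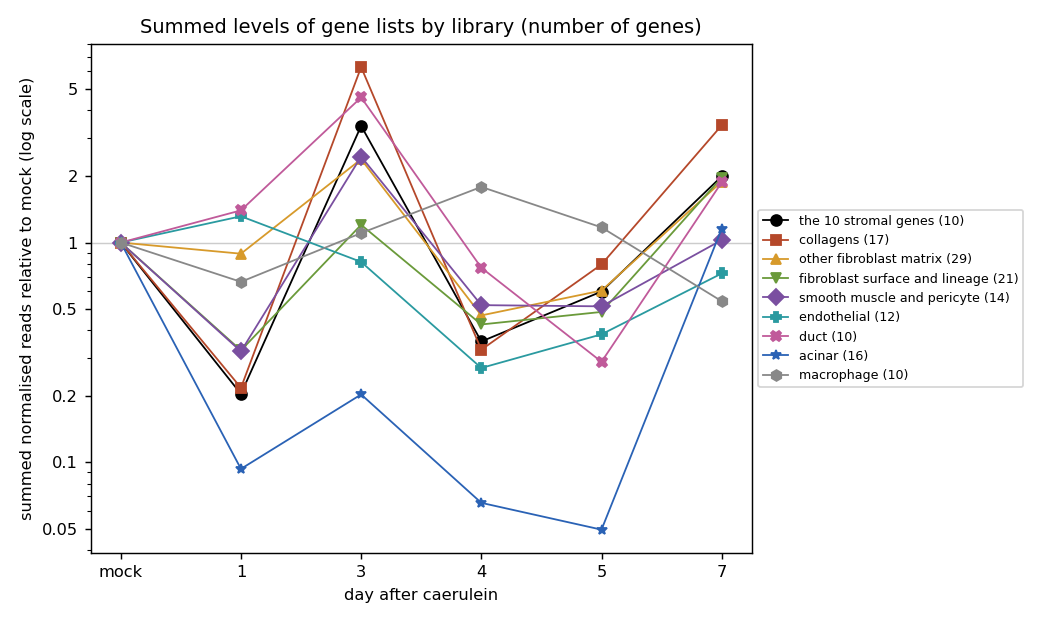
Summed normalised reads of each gene list divided by its mock value (log scale) in the 6 libraries, with the number of genes in brackets and lines joining libraries of 1 list. The 10 stromal genes, collagens and duct genes are highest on day 3, acinar genes are below mock from day 1 to day 5, and macrophage genes are highest on day 4.

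Ligands of the receptor encoded by Pdgfra had another course than the receptor. Pdgfa, which signals through the alpha receptor, had 141 normalised reads in mock, 162 at day 1, 305 at day 3, 374 at day 4, 367 at day 5 and 158 at day 7. Pdgfc, a further ligand of that receptor, had 93.6 in mock, 48.0 at day 1, 96.5 at day 3, 277 at day 4, 366 at day 5 and 215 at day 7. Pdgfb, which binds both receptors, had 113 in mock, 41.8 at day 1, 57.0 at day 3, 145 at day 4, 249 at day 5 and 156 at day 7. Pdgfa and Pdgfc were thus highest on days 4 and 5 and Pdgfb on day 5, when Pdgfra was at 10.4 (day 4) and 20.8 (day 5) normalised reads. Pdgfd, which binds the beta receptor, and the receptor-like gene Pdgfrl were at most at 22.8 and 54.9 normalised reads.

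Receptors through which macrophages bind or take up matrix proteins were mostly abundant, with 11 of 14 among the expressed genes. Of the 14, 2 exceeded mock at least 2-fold on day 3 and 2 were lower (median 0.04), and 1 was higher and 2 lower on day 7 (median 0.05). Stab1 encodes stabilin-1, a scavenger receptor that takes up the Sparc protein. It had 4226 normalised reads in mock, 3742 at day 1, 5865 at day 3, 6749 at day 4, 5147 at day 5 and 4378 at day 7, a range far narrower than that of Sparc. Mrc1, which encodes the mannose receptor that can bind collagen, was at 7568 in mock, 1858 at day 1 and between 6095 and 8859 on the later days. Itgb5, a subunit of an integrin that binds periostin, had 3821 in mock and 10251 on day 3. Mrc2, the collagen uptake receptor of mesenchymal cells, was scarce, with 9.55 in mock, 63.4 at day 3 and 38.0 at day 7.

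Likeness of course was measured as the Pearson correlation, over the 6 libraries, between a gene's log2 level and the mean standardised course of the 10. The points share libraries and scaling, and the values describe these libraries alone. Among expressed genes with a range of at least 4-fold, leaving out the collagens and predicted genes, the most alike were Fbln2 (r = 0.997), Sod3 (0.988), Fstl1 (0.985), Plat (0.980), Pcolce (0.976), Kdelr3 (0.973), Dpt (0.968) and Ccdc80 (0.964). Their Spearman rho was 1 for the first 6 and 0.943 for the last 2, and r stayed between 0.947 and 0.999 over the 5 libraries without day 3. Fbln2, which encodes the matrix protein fibulin-2, had 95.5 normalised reads in mock, 9.85 at day 1, 447 at day 3, 20.7 at day 4, 52.0 at day 5 and 425 at day 7. Several of the others encode secreted proteins too, such as extracellular superoxide dismutase (Sod3), tissue plasminogen activator (Plat), the procollagen processing enhancer (Pcolce) and dermatopontin (Dpt). Within the 10, the correlation of each gene with the mean of the other 9 was between 0.828 and 0.950 for 8 of them. It was 0.611 for Mest and 0.246 for Acta2.

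A count test on the recovered reads took the 5 caerulein libraries as 1 group against the mock library. This fit treats different days as replicates, so a gene that is high on some days and low on others has a large spread. Of 14106 genes, edgeR's quasi-likelihood test called 0 at an adjusted p under 0.05 (0% in either direction), with 99 at an unadjusted p under 0.05, and DESeq2 called 2, with 117 at an unadjusted p under 0.05. Of the 10 stromal genes, 0 were called by either tool and 0 had an unadjusted p under 0.05. The smallest unadjusted p among them was 0.294 in edgeR, for Postn, with a log2 difference of 1.96.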

How the data were processed

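Total RNA of sorted pancreatic macrophages was sequenced, with 1 pooled library a day, per the labels' protocols. The deposited table holds, for every gene, a signal that the authors derived from read counts. Every column was made of whole multiples of 1 step, so reads were recovered by division (100% whole within 0.01 reads), and the factors equal median-of-ratios size factors. The floor of 3 reads was worth 2.11 to 3.88 normalised reads. The submitters' processing notes name Bowtie 0.12.2 and mm8, without a role. How genes were counted, on which annotation and strand, was not given in the sources used here. Coordinates therefore come only from RefSeq promoters (GRCm38.p6), matched by symbol. Symbols of mouse genes were available for 31431 of 31617 identifiers.

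The pseudocount of 17.8 is 1 per 1000000 of the mean column total. Intervals are 95% exact Poisson for levels and Clopper-Pearson for ratios and shares. The members, gene lists, tests and alternatives were chosen with earlier results of these data known. Besides the 10 genes, the rule named the 8 most alike, the 3 of highest mean and 2 of widest range in each list, the PDGF family and the genes of the sort. Outside it, Stab1, Mrc2, Gfap, Ngfr, Lrat, Myh11 and the other markers at 0 reads were named after their values were seen, and 1 gene that the rule named is not reported here. Lists of Schwann cell genes (5 measured, 0 at least 2-fold from mock on any day) and of cytoskeletal genes (11 measured, 1 higher and 0 lower than mock on day 3) were counted as well. The count test ran in edgeR 4.0.16 on genes with 60 or more reads in all, with DESeq2 1.42.0 as an alternative (R 4.3.3). Python 3.11.15 with pandas 2.3.3, scipy 1.17.1 and numpy 2.4.6 did the rest, after tests on simulated data. The other alternatives were a pseudocount 4 times lower, median centring, quantile normalisation, other filters, TMM factors and, for the count test, leaving out each caerulein library.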

Additional observations from a re-analysis of the deposited data

How the results depend on the processing

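Medians of the 10 genes were called unchanged if they moved by at most the median half-width of the single-gene counting intervals, and counts if within 1.5 times. By this loose rule all were unchanged in the 10 comparisons with a pseudocount 4 times lower and with median centring. Even so, the lower pseudocount gave a median of -1.57 in place of -1.04 for day 1 against mock. With median centring 4 genes in place of 6 were at least 2-fold lower than mock on day 4. With quantile normalisation the median log2 ratio of day 1 against mock was -0.010 in place of -1.04 and that of day 7 against mock 1.80 in place of 1.26, and on day 4 against mock 1 gene was at least 2-fold higher in place of 0 and 3 lower in place of 6; the cause was not tested. Of 300 ratios of single genes under these 3 settings, 265 stayed within counting error, 35 moved beyond it and 0 of those past 2-fold changed direction. Median centring shifted the median of expressed genes by at most 0.19 on the log2 scale (day 7 against day 5), and quantile normalisation by at most 0.18. Without a filter on low genes the background shares were lower, for example 1.70% in place of 3.73% higher on day 3, since genes with hardly any reads cannot pass 2-fold with the pseudocount. In the count test of caerulein libraries against mock, 0 genes were called by edgeR, with TMM factors, with no filter and without each caerulein library in turn (range 0 to 0), and 2 by DESeq2, none of them among the 10. No paired analysis was possible because each day has 1 library. Values under 30 reads, mostly of days 1, 4 and 5, carry wide intervals, and variation between pools of mice was not measured.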
